A study of Mus musculus with 4 samples.

Results

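The genes described are 6 members of the plasminogen activation system and its serpin relatives: the activators Plau and Plat, the receptor Plaur, and the serpins Serpine2, Serpinb2 and Serpinf1. They were taken by name, as every probe set that the platform annotation assigns to exactly 1 of them. That gave 8 probe sets for 5 of the 6 genes, among 45037 non-control probe sets and 18193 named genes. Serpine2 was matched to no probe set and was not analysed here. RNA came from cultured dermal fibroblasts of mice at postnatal day 1, of genotype adam9 -/- (knockout, KO, n = 2 isolations) and adam9 +/+ (wild type, WT, n = 2), each isolation on 1 array. All cultures were untreated and grown for 48 h. The knockout is of the whole animal, and the labels do not say how many animals, of which strain or sex, entered an isolation. The comparison asks which genes differ constitutively when ADAM9, a membrane-anchored metalloprotease, is missing.

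Plasminogen is a circulating zymogen that urokinase (uPA, from Plau) and tissue plasminogen activator (tPA, from Plat) cut into plasmin, the protease that dissolves fibrin and degrades matrix proteins. The urokinase receptor (uPAR, from Plaur) is a lipid-anchored protein that holds urokinase at the cell surface, and in skin the system is known for its part in wound healing. Most serpins are suicide inhibitors that trap a protease by offering it a loop: Serpine2 (protease nexin-1) blocks thrombin and urokinase, and Serpinb2 (PAI-2) blocks both activators. Serpinf1 (pigment epithelium-derived factor) has the serpin fold, is secreted and inhibits no protease.

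Several features of these arrays bear on all differences between the genotypes. Adam9 itself stood at 8.33 and 8.55 on the log2 scale in the knockout arrays, against 11.58 and 11.70 in the wild-type arrays. The genotypes also differed in sex-linked RNA. Xist was at 10.38 and 10.40 in knockout and 4.29 and 4.32 in wild-type cells, and Eif2s3y was at 2.75 and 2.67 in knockout and 9.19 and 9.31 in wild-type cells. All 4 sex-linked genes tested passed the limma test (adjusted p under 0.05), among 9 genes that did so in all. Genotype and the sex of the cells, as read from these genes, therefore cannot be told apart here. Macrophage and leukocyte markers were high in wild-type isolation 1 alone. Their median over 19 genes was 4.16 and 4.28 in the knockout arrays, 8.55 in wild-type isolation 1 and 4.39 in wild-type isolation 2. Their summed linear signal was 682 and 554 in the knockout arrays, 13186 in wild-type isolation 1 and 761 in wild-type isolation 2. The 11 keratinocyte genes had medians of 3.54 and 3.68 in the knockout arrays, against 3.90 and 3.96 in the wild-type arrays, below the filter on dim probe sets at 4.17. Of the 5 above it, Perp read 5.28 and 3.04 in the knockout arrays, against 8.10 and 7.90 in the wild-type arrays, and Dsp read 3.06 and 3.55 in the knockout arrays, against 4.84 and 6.75 in the wild-type arrays. Krt10 was higher in the knockout by 0.39, and none of these passed. Of 9 pericyte and smooth muscle markers, 7 were lower and 2 higher in the knockout without overlap, with a median difference of -0.51. Of all genes tested, 22.0% were lower and 23.0% higher in this way. Of 4 Schwann and neural markers, 3 were higher without overlap, with a median difference of 0.64. The part of these markers in the results was not tested. Proliferation markers (7 genes) had medians of 8.80 and 9.89 in the knockout arrays, against 6.96 and 6.59 in the wild-type arrays. The labelled cell type fitted its markers, since the 11 fibroblast genes had medians of 12.81 and 12.78 in the knockout arrays and of 12.41 and 12.32 in the wild-type arrays. Wild-type isolation 2 was the lowest array for the fibroblast genes Lum (10.13) and Pdgfra (10.35), and for Dcn, Pdgfrb, Col1a1, Col1a2 and Col3a1. It was the highest array for S100a4 (13.74) and Vim (13.81), while Thy1 and Twist2 were lowest in a knockout array.

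**Figure D1:**
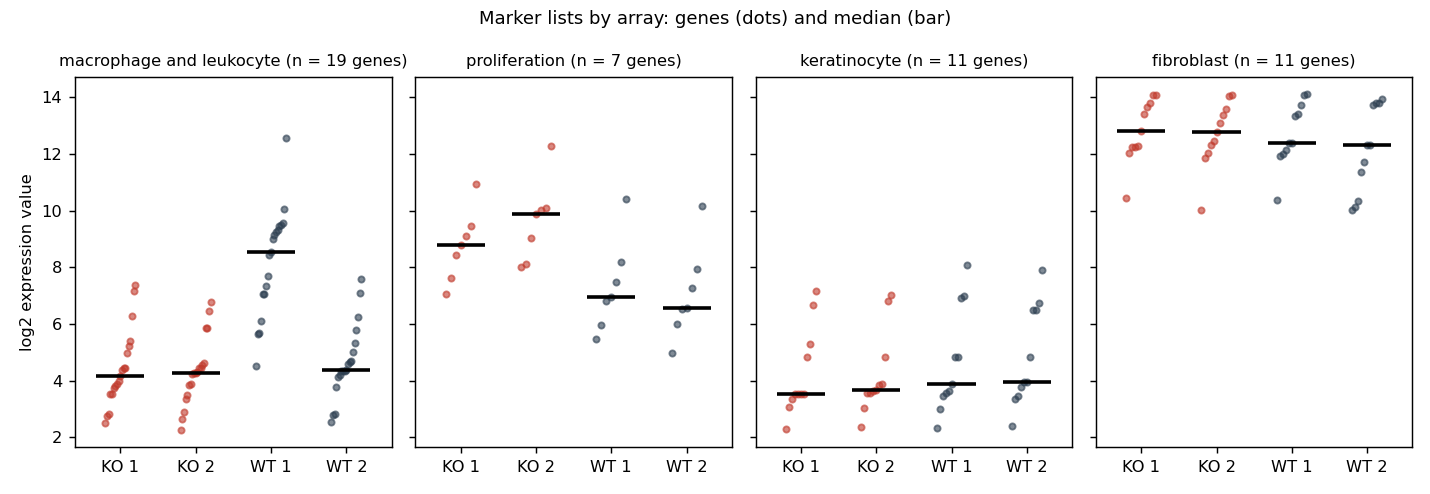
Log2 expression values (y axis, shared) of marker genes for macrophages and leukocytes, proliferation, keratinocytes and fibroblasts in the 4 arrays (x axis); dots are genes and bars are medians. The macrophage bar stands at 8.55 in wild-type isolation 1 and at 4.16 to 4.39 in the other 3 arrays, and the proliferation bars are higher in both knockout arrays.

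No member rose or fell in the knockout by the test used. Of the 5 genes with a probe set, 4 lay above the filter on dim probe sets and were tested with limma across 13271 genes, and 0 of the 4 reached an adjusted p under 0.05, while 0.0678% of all genes tested did. None of the 4 had an unadjusted p under 0.05 either, a level reached by 11.4% of all genes tested. At the level of single probe sets 0 of 7 passed, against 0.0424% of 23595 probe sets. Plat was lower and Serpinf1 higher in both knockout arrays than in either wild-type array, so that 2 of the 4 genes did not overlap between genotypes, and 45.0% of all genes tested did not overlap. The members' count is thus near the background. With 2 isolations per genotype the intervals were wide, and a p above the threshold does not show that the genotypes were alike.

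Among the activators, Plau was spread widely within each genotype. Its brighter probe set, 1422139_at (Entrez 18792), read 5.40 and 6.24 in the knockout arrays, against 6.78 and 6.04 in the wild-type arrays. The highest value was in wild-type isolation 1 and the lowest in knockout isolation 1, and the groups overlapped, because knockout isolation 2 lay above wild-type isolation 2. The means were 5.82 ± 0.594 in knockout and 6.41 ± 0.525 in wild-type cells (SD, n = 2 each). The difference of -0.59 log2 units (SE 0.397, 95% interval -1.66 to 0.48, limma adjusted p = 0.608) corresponds to 0.664 times the wild-type signal, with an interval of 0.317 to 1.39. The gap of 0.84 between the knockout arrays was wider than that of 93.8% of genes tested. The gap of 0.74 between the wild-type arrays compares with a median gap of 0.155 over all genes.

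The other Plau probe set did not carry this difference. Probe set 1422138_at read 4.79 and 4.94 in the knockout arrays, against 5.17 and 4.66 in the wild-type arrays. The order of the arrays was partly kept, with wild-type isolation 1 again the highest, but the lowest was now wild-type isolation 2. Its difference was -0.05 (95% interval -0.62 to 0.52, limma adjusted p = 0.952 over all probe sets tested), and the mean over both probe sets differed by -0.32. Macrophages are a known source of urokinase, and wild-type isolation 1, where both Plau probe sets were highest, is also the array with the macrophage markers. Leaving that array out gave a Plau difference of -0.22, and leaving out wild-type isolation 2 gave -0.96. Leaving out knockout isolation 1 gave -0.17, and leaving out the other knockout array gave -1.01. What the marker-bearing cells contributed to Plau was not tested. In bulk RNA, fewer cells of a type and less RNA per cell cannot be told apart.

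Plat, the gene of tissue plasminogen activator, was steadier. Probe set 1415806_at (Entrez 18791) read 10.36 and 10.31 in the knockout arrays, against 10.80 and 10.42 in the wild-type arrays. Both knockout values lay below both wild-type values, with little room between knockout isolation 1 and wild-type isolation 2. The means were 10.33 ± 0.0356 in knockout and 10.61 ± 0.271 in wild-type cells (SD, n = 2 each). The difference of -0.27 (SE 0.177, 95% interval -0.75 to 0.20, limma adjusted p = 0.599) was 0.828 times the wild-type signal, with an interval of 0.595 to 1.15. Wild-type isolation 1 was again the highest array, and without it the difference was -0.08. It was -0.46 without wild-type isolation 2. The dim probe set 1458553_at read 4.44 and 4.50 in the knockout arrays, against 4.42 and 4.70 in the wild-type arrays, where the genotypes overlapped. It differed by -0.09 (95% interval -0.51 to 0.32, adjusted p = 0.850).

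**Figure D2:**
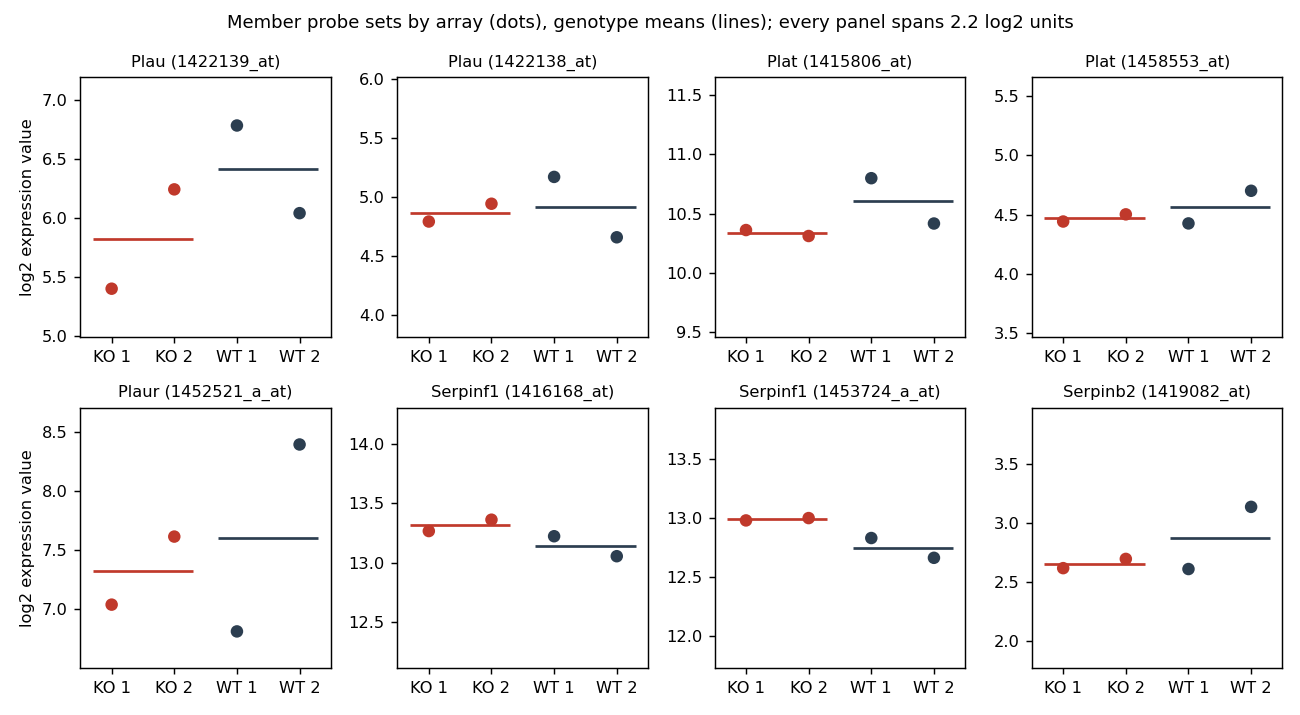
Log2 expression values (y axis, 2.2 log2 units in every panel) of the 8 member probe sets in knockout isolations 1 and 2 and wild-type isolations 1 and 2 (x axis); dots are arrays and lines are genotype means. Plaur spans 6.81 to 8.39 within the wild type alone, while both Serpinf1 probe sets keep all arrays within 0.34 log2 units.

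The receptor gene Plaur had the widest spread of the members. Its 1 probe set, 1452521_a_at (Entrez 18793), read 7.04 and 7.61 in the knockout arrays, against 6.81 and 8.39 in the wild-type arrays. The wild type held both the lowest and the highest array, with the knockout values between them. The gap of 1.58 between the wild-type arrays was wider than that of 98.9% of genes tested. The means were 7.33 ± 0.407 in knockout and 7.60 ± 1.12 in wild-type cells (SD, n = 2 each). They differed by -0.28 (SE 0.581, 95% interval -1.84 to 1.28, limma adjusted p = 0.890), an interval of 0.280 to 2.44 times the wild-type signal. The sign rested on single arrays. Leaving out wild-type isolation 2 gave 0.51, and leaving out wild-type isolation 1 gave -1.07. Leaving out knockout isolation 1 gave 0.01, and leaving out the other knockout array gave -0.56. Macrophages also make this receptor. Plaur was lowest in wild-type isolation 1, the array with the macrophage markers, and their part in its values was not tested.

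The upstream sequences of Plaur and Serpinf1 are shown because the main probe sets of these genes had the widest and the narrowest range over the 4 arrays among the members tested, 1.58 and 0.31 log2 units. The RefSeq promoter table of build GRCm38.p6 had an entry for 4 of the 6 members. Each window is the 150 bases before the table's transcription start, 5′ to 3′ on the gene's strand, at chr7:24462333-24462482 (plus strand) for Plaur and chr11:75422624-75422773 (minus strand) for Serpinf1. Capitals mark matches on either strand to TGACTCA, the core bound by AP-1 factors, and to GGGCGG, the GC box bound by Sp1 factors.
Plaur: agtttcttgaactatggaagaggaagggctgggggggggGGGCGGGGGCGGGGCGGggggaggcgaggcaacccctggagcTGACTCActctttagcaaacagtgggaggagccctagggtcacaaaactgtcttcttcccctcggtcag
Serpinf1: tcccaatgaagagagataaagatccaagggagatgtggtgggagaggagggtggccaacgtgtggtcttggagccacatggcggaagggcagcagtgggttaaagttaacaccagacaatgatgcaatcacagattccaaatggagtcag
The Plaur window held 1 TGACTCA, at 69 to 63 bases before the start, and 3 GGGCGG, at 111 to 95 bases before it, of which the last 2 share a base. The Serpinf1 window held neither string of letters. Windows of the same length held TGACTCA or its reverse in 2.84% of the 32851 promoters of the table and GGGCGG or its reverse in 28.6%. The windows' GC content was 62.7% for Plaur and 50.7% for Serpinf1. These are matches of letters, and no binding was measured.

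The serpin gene Serpinf1 varied least among the main probe sets of the members tested. It was higher in the knockout by a small amount on both of its probe sets. Probe set 1416168_at (Entrez 20317) read 13.27 and 13.36 in the knockout arrays, against 13.22 and 13.05 in the wild-type arrays. Probe set 1453724_a_at read 12.98 and 13.00 in the knockout arrays, against 12.83 and 12.66 in the wild-type arrays. On both, every knockout value lay above every wild-type value, and wild-type isolation 2 was lowest. The means of the first were 13.31 ± 0.0680 in knockout and 13.14 ± 0.120 in wild-type cells (SD, n = 2 each). Its difference of 0.18 (SE 0.137, 95% interval -0.19 to 0.54, limma adjusted p = 0.656) was 1.13 times the wild-type signal, with an interval of 0.876 to 1.46. The second differed by 0.24 (95% interval -0.12 to 0.61, adjusted p = 0.569). Both probe sets read the same RNA samples, so they are not independent of each other. The difference of the first was 0.09 without wild-type isolation 2.

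Serpinb2 was dim in all arrays. Its 1 probe set, 1419082_at (Entrez 18788), read 2.62 and 2.70 in the knockout arrays, against 2.61 and 3.14 in the wild-type arrays. Every value lay below the filter at 4.17, so the gene was not tested, and its means of 2.66 and 2.87 are given with no p. Wild-type isolation 2 was the highest array. Without detection calls, a level this low cannot be told from background.

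**Figure D3:**
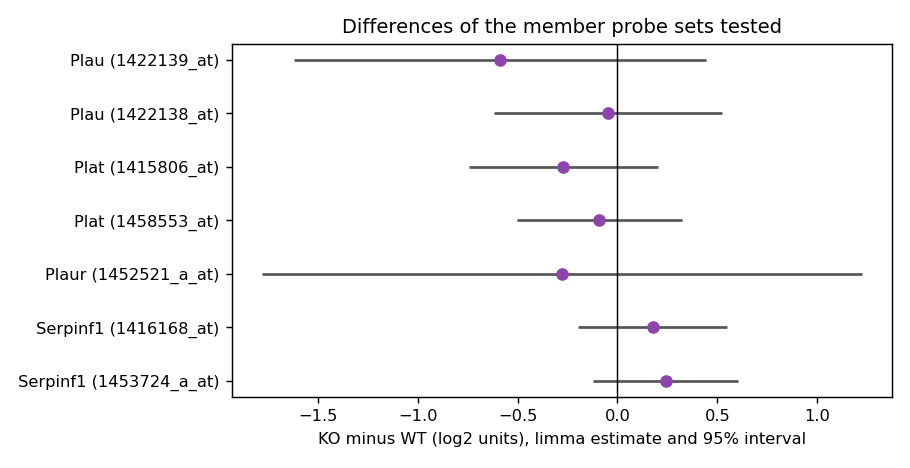
Knockout minus wild-type difference in log2 units (x axis) of the 7 member probe sets tested, with dots for the limma estimate and lines for the 95% interval. All 7 intervals include 0, and those of Plaur and of the brighter Plau probe set are the widest.

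The zymogen and the other activating proteases were dim in these cells. Plasminogen itself, Plg, a product mainly of the liver, read 3.58 and 3.40 in the knockout arrays, against 3.47 and 3.39 in the wild-type arrays, below the filter. Of a list of 8 proteases of the system, members included, 4 were tested and 0 passed. The hepsin gene Hpn, a membrane serine protease, was the 1 further gene without overlap among those tested. Of all genes tested, 45.0% did not overlap. Hpn read 4.71 and 4.80 in knockout and 4.85 and 4.87 in wild-type cells (difference -0.10, limma adjusted p = 0.779).

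The listed receptors and surface partners of the system leaned to lower values in the knockout. The list was chosen with earlier results of these data known, so setting it beside all genes is a description only. Of 19 listed genes 16 were tested and 0 passed. Among the 15 apart from Plaur, 8 were lower with no overlap and 0 were higher with no overlap, beside 22.0% and 23.0% of all genes tested. The median difference of the 15 was -0.33, against 0.00 for all genes. The 8 include Itgb2, which passed the filter on dim probe sets only through wild-type isolation 1. Itgb3, the beta subunit of the vitronectin receptor that acts with uPAR at adhesion sites, read 6.53 and 6.83 in the knockout arrays, against 8.64 and 8.65 in the wild-type arrays. Its difference of -1.96 (SE 0.156, limma adjusted p = 0.0693) was far wider than the gaps within genotypes and still missed the threshold. Its other probe set, at 5.15 and 5.20 in knockout and 5.12 and 5.30 in wild-type cells, overlapped.

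Igf2r, the cation-independent mannose 6-phosphate receptor, which binds uPAR and plasminogen, read 10.96 and 10.70 in the knockout arrays, against 11.77 and 11.16 in the wild-type arrays (difference -0.64, adjusted p = 0.455). Its second probe set gave -0.55. Itgb2, the beta subunit of leukocyte integrins, read 3.91 and 3.97 in the knockout arrays, against 6.76 in wild-type isolation 1 and 4.03 in wild-type isolation 2 (difference -1.46, adjusted p = 0.592). Its 1 high value was in the array with the macrophage markers, whose part in it was not tested. The other Itgb2 values lay below the filter at 4.17, so its lack of overlap rests on values that cannot be told from background.

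The inhibitors tested showed no common direction. Of 12 listed genes, with the dim Serpinb2 among them, 8 were matched to a probe set, 4 were tested and 0 passed, with 2 positive and 2 negative differences. Serpini1 (neuroserpin), an inhibitor of tPA, read 6.46 and 5.58 in the knockout arrays, against 6.63 and 6.47 in the wild-type arrays (difference -0.53, adjusted p = 0.578). Serpinb6a, an intracellular serpin, read 12.57 and 12.39 in the knockout arrays, against 12.65 and 12.81 in the wild-type arrays (difference -0.25, adjusted p = 0.564). Both were lower without overlap, as were 22.0% of all genes tested. The difference was smaller than the wider gap within a genotype for Serpini1 and larger than it for Serpinb6a. For Serpinb6a the genotypes lay close, at 12.57 in knockout isolation 1 and 12.65 in wild-type isolation 1.

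Substrates and targets of plasmin and its activators, a list likewise chosen with earlier results known, also had a negative median. Of 16 listed genes 10 were tested and 0 passed, 5 were lower and 0 higher without overlap, beside 22.0% and 23.0% of all genes tested, and the median difference was -0.31. Pdgfc, a latent growth factor that tPA can activate, read 9.35 and 9.21 in the knockout arrays, against 10.11 and 10.47 in the wild-type arrays. Its difference was -1.01 (SE 0.176, limma adjusted p = 0.226), and its second probe set gave -1.06. Fn1, the fibronectin gene, read 12.90 and 13.16 in the knockout arrays, against 13.76 and 13.73 in the wild-type arrays (difference -0.71, adjusted p = 0.283). The second, dimmer Fn1 probe set gave -1.82. The separation in Pdgfc and Fn1 was wider than any gap within a genotype. Thbs1, the gene of the matricellular protein thrombospondin-1, differed by -0.31 (adjusted p = 0.466).

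Genes of thrombin signalling and tissue factor (7 of 9 tested, 0 passed) had a median of -0.19. Procr, the endothelial protein C receptor, read 8.41 and 8.15 in the knockout arrays, against 8.77 and 9.84 in the wild-type arrays (difference -1.02, adjusted p = 0.446). Tfpi, the tissue factor pathway inhibitor, differed by -0.19 (adjusted p = 0.592) on its brightest probe set and by -0.14 to -0.68 on the other 3. Procr was highest in wild-type isolation 2. Reported receptors and partners of the Serpinf1 protein (6 of 6 tested, 0 passed) had a median of -0.08. Pnpla2, the fat triglyceride lipase that binds it, differed by -0.74 (adjusted p = 0.446), with 0.26 on its dim second probe set. The laminin receptor gene Rpsa differed by 0.22 (adjusted p = 0.558) and the membrane protein gene Plxdc2 by -0.21 (adjusted p = 0.651). The dimmer Plxdc2 probe sets gave -0.50 without overlap and -0.30 with overlap.

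**Figure D4:**
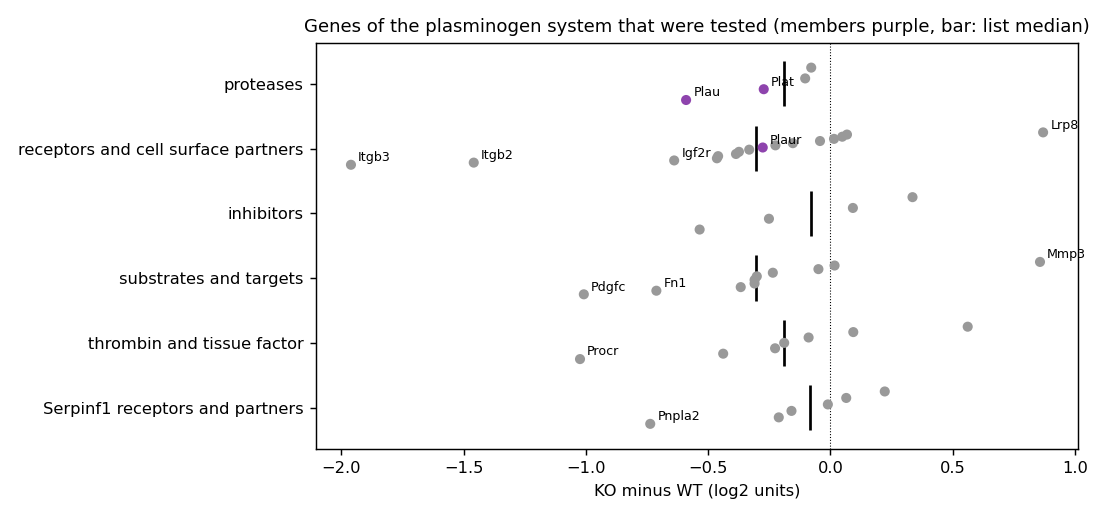
Knockout minus wild-type difference in log2 units (x axis) of each tested gene in 6 lists of the plasminogen system (y axis); members are purple, other genes grey and the bar is the list's median. No gene shown passed the test; Itgb3 at -1.96 lies farthest from 0.

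Across the serpin family, 40 named genes had a probe set, 19 were tested and 0 passed (1 had an unadjusted limma p under 0.05). The 2 that were higher without overlap, beside 23.0% of all genes tested, were Serpinf1 and the collagen chaperone gene Serpinh1. The latter was named after its values were seen. Serpinh1 read 13.28 and 13.33 in the knockout arrays, against 13.20 and 13.03 in the wild-type arrays (difference 0.20, 95% interval -0.16 to 0.56, adjusted p = 0.612). A further 6 of the 19 were lower without overlap, beside the 22.0% of all genes given above. Of the 6, 5 belong to the intracellular clade B, which made up 9 of the 19 genes tested. The split by clade was not planned and was made with the values known, so these counts are a description only. Of the 5, Serpinb1b passed the filter on dim probe sets only through wild-type isolation 2. Within that clade Serpinb8, named after its values were seen, had a positive difference of 0.34 with overlap.

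The 3 largest differences among serpins without overlap were in genes of clade B, to which Serpinb2 belongs. Serpinb9b read 7.70 and 8.28 in the knockout arrays, against 8.94 and 11.10 in the wild-type arrays, a difference of -2.03 (SE 0.764, limma adjusted p = 0.443). Serpinb6b read 6.72 and 6.75 in the knockout arrays, against 7.88 and 8.90 in the wild-type arrays, a difference of -1.65 (SE 0.363, adjusted p = 0.288). Serpinb1b read 3.61 and 3.87 in the knockout arrays, against 4.07 and 5.76 in the wild-type arrays, a difference of -1.17 (SE 0.589, adjusted p = 0.523). Only its value in wild-type isolation 2 lay above the filter at 4.17, so Serpinb1b was tested through that array alone. Its other values cannot be told from background. In all 3 genes, wild-type isolation 2 was the highest array, as it was for Plaur. That array was also highest for Serpinb2, whose values cannot be told from background. The mouse has several close copies of these genes, and how far their probe sets take up RNA of a copy was not tested.

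**Figure D5:**
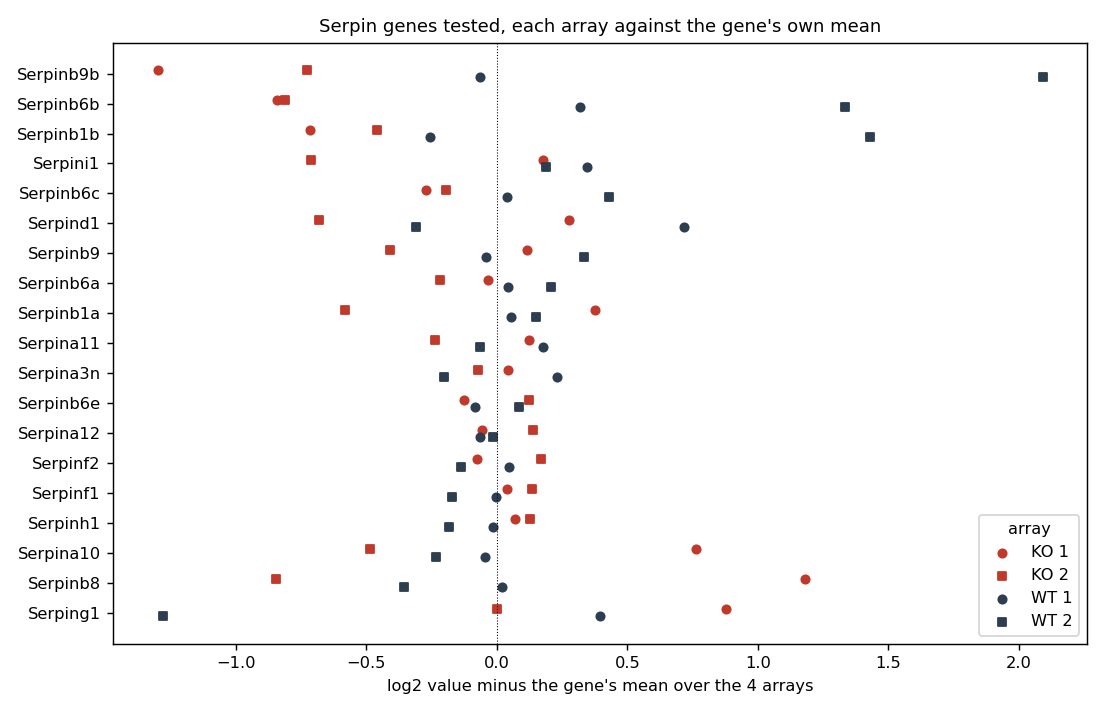
Log2 value of each array minus the gene's own mean over the 4 arrays (x axis) for the 19 serpin genes tested (y axis), with knockout arrays in red, wild-type arrays in dark blue, isolation 1 as circles and isolation 2 as squares. Wild-type isolation 2 lies farthest to the right for Serpinb9b, Serpinb6b and Serpinb1b, and the Serpinf1 arrays lie close together.

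Plau and Plaur were the members spanning over 1 log2 unit across the 4 arrays, and their array patterns differed. For Plau the nearest of the genes tested, by root mean square distance of centred log2 values over 4 arrays, were Tenm4 (0.143), Edil3 (0.151) and Adgrl3 (0.203). Tenm4 read 5.51 and 6.71 in the knockout arrays, against 7.12 and 6.19 in the wild-type arrays. For Plaur they were Nipal1 (0.145), Flacc1 (0.178) and Ccn2 (0.209). Ccn2, the gene of a secreted matricellular protein, read 11.25 and 11.67 in the knockout arrays, against 11.39 and 12.88 in the wild-type arrays. With 4 arrays, this likeness is a description only.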

How the data were processed

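The authors deposited 1 log2 value per probe set and array. Per the submitters' processing notes the values came from Affymetrix Expression Console; its version, summary method and log base were not given in the sources used here. They were taken as log2 from their range and near-equal medians (4.83 to 4.87), so folds depend on that base, and no detection calls were used. Of 45101 probe sets, 64 were controls. Gene names were updated by Entrez identifier through a RefSeq table (assembly GRCm38.p6). For each gene the probe set of highest mean over the arrays was used, and genes above the 40th percentile were tested with limma 3.58.1 in R 4.3.3 (lmFit, eBayes, no block), with Benjamini-Hochberg adjustment over all 13271 genes; changed means an adjusted p under 0.05. The same fit was run on 23595 single probe sets. Reported intervals are moderated limma intervals; the small number of arrays limits their precision. P-values measure the spread between isolations, which the labels do not tie to separate animals. Isolation numbers were not treated as pairs: the difference between isolations 1 and 2 correlated across genes between genotypes at r = 0.116, with no label tying numbers to a litter or day. The procedure was tested on simulated data. The members and the lists were chosen with earlier results of these data known. Besides the members, up to 3 genes per list were named: those with the largest difference among genes without overlap. In each list, only entries matched to a probe set were analysed.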

Additional observations from a re-analysis of the deposited data

How the results depend on the processing

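In each of 14 alternatives (the isolation number as a replicate block, 2 other filters, 3 normalizations between arrays, 2 other ways to treat a gene's probe sets, an intensity trend, array weights and leaving out each array), 0 member genes passed. Single probe sets were fitted in 12 of them, and 0 member probe sets passed. With the replicate block 2 genes were called in all, against 9 without it, and 0 were called with any 1 array left out. The block changed no call of a member; adjusted p-values were 0.565 for Plat, 0.643 for Plau, 0.693 for Serpinf1 and 0.751 for Plaur. Genes without overlap numbered 9050 to 10354 with 1 array left out, against 5968, since fewer arrays overlap less. In those fits the genotype left with 1 array is assumed to vary like the other. Scaling moved the median difference of all genes little, to 0.022 with median centring. Of 138 differences of members, 131 kept their sign. That count says little, because the block, the filters, the trend and the weights left each difference as in the main fit. Genes and their main probe sets were also counted as separate differences. The 7 that changed sign came from leaving out 1 array, with Plaur's counted both as gene and as probe set. Plaur (1452521_a_at) ranged from -1.07 to 0.51, Plau's 1422138_at from -0.30 to 0.21 and Plat's 1458553_at from -0.23 to 0.046. Plat's main probe set stayed between -0.46 and -0.08, Plau's between -1.01 and -0.17 and Serpinf1's between 0.09 and 0.26. Dim signal limits Serpinb2, which had no test under the filter; with no filter its limma adjusted p was 0.763.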
